A study of Mus musculus with 550 samples.

Results

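Mouse spleen was compared 12 h after a single dose of 2 fumarate ester drugs given together or of their vehicle alone. The comparison holds 11 of the 550 arrays of a study of messenger RNA in 7 organs, measured with Affymetrix mouse chips. Arrays were chosen by their titles: 4 carry the combination of DMF and MEF (animals numbered 33 to 36) and 7 carry the vehicle (animals 1 to 7). All animals were C57BL/6 mice. The combination was DMF at 100 mg/kg with a mixture of MEF salts (Ca2+, Mg2+ and Zn2+) at 79.2 mg/kg, and the vehicle, hydroxypropyl methylcellulose at 0.8%, is called vehicle below. For the 4 arrays a second label, the source name, gives DMF 100 and leaves out the MEF salts, so the group rests on the titles. Other spleen groups at 12 h served as neighbours: DMF 100 alone (8 arrays, 100 mg/kg), MEF salts alone (8 arrays, 79.2 mg/kg), DMF 179.2 (8 arrays, 179.2 mg/kg, the same total dosed mass as the combination, salts included) and naive mice (3 arrays). The study asked which genes the drugs shift against vehicle, and the comparison asks it for the combination in spleen.

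DMF is dimethyl fumarate, the methyl diester of fumaric acid, and MEF is its ethyl monoester. Such esters react with cysteine thiols, among them those of KEAP1, the protein that marks the transcription factor NRF2 for degradation, and freed NRF2 turns on genes of glutathione transfer, quinone reduction and iron handling. Damaged proteins are sensed by a separate factor, HSF1, which raises cytosolic chaperones of the HSP70, HSP90 and HSP40 families. Spleen filters aged red cells in its red pulp, holds B and T cells in its white pulp, and in mice also makes red cells.

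The tissue label was borne out by markers of spleen cells. The mean log2 level in the 4 combination arrays was 12.06 for Cd79a of B cells, 11.15 for Cd3d of T cells and 10.91 for Spic, the transcription factor of red pulp macrophages. Pax5, also of B cells, was low at 4.13 with the combination and 4.11 with vehicle, and Rhag, of red cell precursors, was at 2.50 with the combination and 3.47 with vehicle. Prss2, a pancreatic trypsinogen, was at 10.5 log2 in combination array 34 and at 2.26 in the other 3 combination arrays and in all 7 vehicle arrays, and the summed level of 22 pancreatic acinar markers was 14.59 in the highest combination array against 8.41 to 8.72 over the vehicle arrays. The median change of those 22 genes was 1.47 over all arrays and 0.00 without arrays above 6 log2 in Prss2 or above 8 in Alb, which leaves out 10 of 38 arrays at 12 h. Alb, the albumin of liver, was at most 3.64 in the combination arrays and 4.89 in the vehicle arrays. Animal numbers can be read as places in successive runs of 12, although the labels do not say what the numbers stand for. The vehicle arrays then fill places 1 to 7 and the combination arrays places 9 to 12, so no place is shared and treatment and place can be separated only by a line fitted over the other groups.

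More genes rose than fell. Of 17097 genes tested, 574 differed between the combination and vehicle at an adjusted p below 0.05, which is 3.36 percent of the genes, by limma with Benjamini-Hochberg adjustment over all genes. These were 479 higher (2.8 percent) and 95 lower (0.556 percent), while the median change over all genes was 0.002 on the log2 scale. The changes were small: among genes of more than median level that were called also without the Prss2 or Alb arrays, the 3 highest rises were those of Ccn1 (1.18 ± 0.22, log2 change ± SE), Aox1 (1.12 ± 0.17) and Gstm1 (1.03 ± 0.12). In 585 genes (3.42 percent) all 4 combination arrays lay above all 7 vehicle arrays, and in 201 (1.18 percent) all 4 lay below. The count of calls depended on the arrays used: 115 genes (0.673 percent; 100 higher, 0.585 percent, and 15 lower, 0.0877 percent) were called without the Prss2 or Alb arrays, 226 (1.32 percent) with place as a covariate, and 13 (0.076 percent) with both. With place as a covariate 137 were higher (0.801 percent) and 89 lower (0.521 percent), and with both 12 were higher (0.0702 percent) and 1 lower (0.00585 percent). Leaving out combination array 34, 35 or 36 gave 324, 247 or 266 calls, and leaving out vehicle array 1 or 2 gave 268 or 335. A further quantile normalization gave 198 higher and 114 lower, a split of 63.5 percent higher against 83.4 percent before it. Every count here has the 4 combination arrays at its base, and their number limits its precision.

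**Figure D1:**
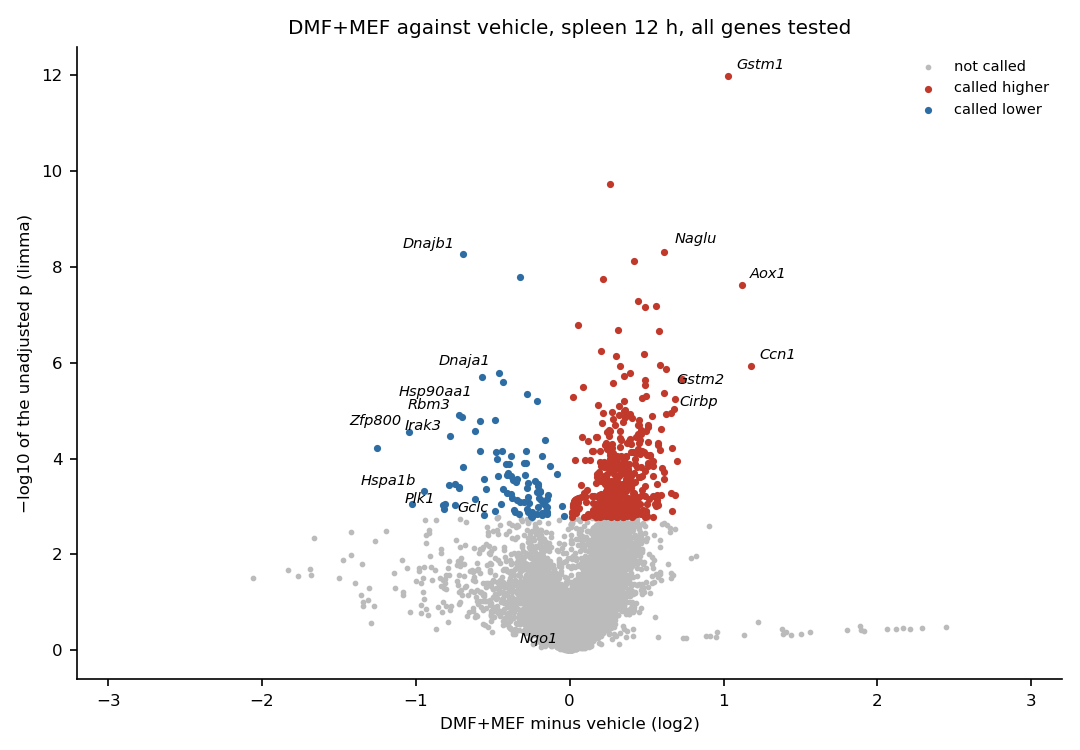
Log2 change of each of the 17097 genes, combination minus vehicle in spleen at 12 h (x axis), against the −log10 of its unadjusted p from limma (y axis), with genes at an adjusted p below 0.05 in red where higher and in blue where lower. Among the labelled genes Gstm1 stands highest of those that rose and Dnajb1 of those that fell, and 479 red points face 95 blue ones.

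Among NRF2 target genes, 2 enzymes of detoxification rose about 2-fold. Gstm1, a glutathione S-transferase of the mu class, was at 9.43, 9.59, 9.78 and 9.60 log2 in combination arrays 33 to 36, and at 8.35 to 8.79 with a median of 8.50 in the vehicle arrays. All 4 combination arrays lay above all 7 vehicle arrays, and the means differed by 1.03 ± 0.12 (9.60 ± 0.14, SD, n = 4, against 8.57 ± 0.18, n = 7; adjusted p = 1.78e-08 by limma, 2.04-fold). Aox1, an aldehyde oxidase, was at 6.17, 5.97, 6.54 and 6.88 with the combination and at 4.88 to 5.6 with a median of 5.47 with vehicle. These groups did not overlap either, and the change was 1.12 ± 0.17 (adjusted p = 5.03e-05 by limma, 2.17-fold). Gstm1 held its call in all 22 settings tried, among them each left-out array. Aox1 missed the threshold in a fit of the 2 groups alone and was called in the others. A second probe set of Gstm1 that was above the floor changed by 1.16 ± 0.12. Genes of the mu class are near-identical in sequence, and the probe set used for Gstm1 is of a kind that can bind relatives, so signal from them cannot be told apart.

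The rest of the NRF2 list changed by less than Gstm1 and Aox1. Of its 28 measured genes, 4 rose and none fell, against 2.8 percent of all genes called higher and 0.556 percent lower, with a median change of 0.11 against 0.002 over all genes. At an unadjusted p below 0.05 by limma, 11 of the 28 were higher and 2 lower, against 12.7 and 3.8 percent of all genes. The mean was higher with the combination in 22 of the 28, against 9025 of all 17097 genes. The other 2 that rose were Ephx1, an epoxide hydrolase (9.84 to 10.04 against 9.54 to 9.68; 0.30 ± 0.07), and Ftl1, the ferritin light chain (0.19 ± 0.05). Ephx1 did not overlap between the groups and Ftl1 did. Ftl1 lost its call without combination array 33, 34 or 35 and without vehicle array 1 or 4 (adjusted p = 0.061, 0.14, 0.12, 0.079 and 0.053 by limma), and Ephx1 without array 36 (adjusted p = 0.067). With place as a covariate the changes of Ephx1 and Ftl1 were 0.23 and 0.07 and neither was called, and the list held 2 calls.

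Nqo1, the quinone reductase most often used as a readout of NRF2, was at 6.67, 6.87, 6.87 and 6.79 with the combination and at 6.10 to 7.75 with a median of 6.82 with vehicle. The combination arrays lay inside the vehicle range, and the difference was −0.02 ± 0.30. Nqo1 had the identical value of 6.865 in 9 of the 38 arrays at 12 h, a tie that limits what its probe set can resolve. Aox1 has such a tie too, 5.820 in 7 of the 38 arrays. Gclc, the catalytic subunit of the ligase that starts glutathione synthesis, was at 7.29, 7.39, 7.24 and 7.59 against 7.56 to 8.12 with a median of 7.83. Only array 36 overlapped with the vehicle range, and the change of −0.47 ± 0.14 missed the threshold (adjusted p = 0.0514 by limma; 0.037 without vehicle array 7). Txnrd1, a thioredoxin reductase, was at 10.75 to 10.79 against 10.45 to 10.69, without overlap, and its change of 0.19 ± 0.07 did not pass the test (adjusted p = 0.106). Hmox1, which breaks down heme (0.33 ± 0.13), Srxn1, a sulfiredoxin (0.23 ± 0.15), Cbr3, a carbonyl reductase (0.51 ± 0.19), and Slc40a1, the iron exporter ferroportin (0.18 ± 0.08), also did not pass.

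Some glutathione transferases rose. Of 22 measured glutathione genes 4 rose and none fell, against 2.8 percent of all genes called higher and 0.556 percent lower, with a median change of 0.05. Beside Gstm1 these were Gstm2 (7.27 to 7.63 against 6.58 to 6.94; 0.63 ± 0.12), the microsomal Mgst1 (8.74 to 9.21 against 8.17 to 8.81; 0.54 ± 0.15) and the pi-class Gstp1 (11.67 to 11.71 against 11.42 to 11.60; 0.17 ± 0.04). Gstm2 and Gstp1 were higher in every combination array than in any vehicle array, and Mgst1 overlapped in array 33. Of the transferases that did not pass, Mgst3 differed by −1.14 ± 0.57 and Gstm5 by −0.48 ± 0.33, both with vehicle arrays far apart, and Gstt1 by 0.03 ± 0.10. Mgst1 was not called without array 34, 35 or 36 or vehicle array 1 or 3 (adjusted p of 0.097, 0.11, 0.11, 0.083 and 0.055 by limma), and only 2 genes of the list were called without the Prss2 or Alb arrays.

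**Figure D2:**
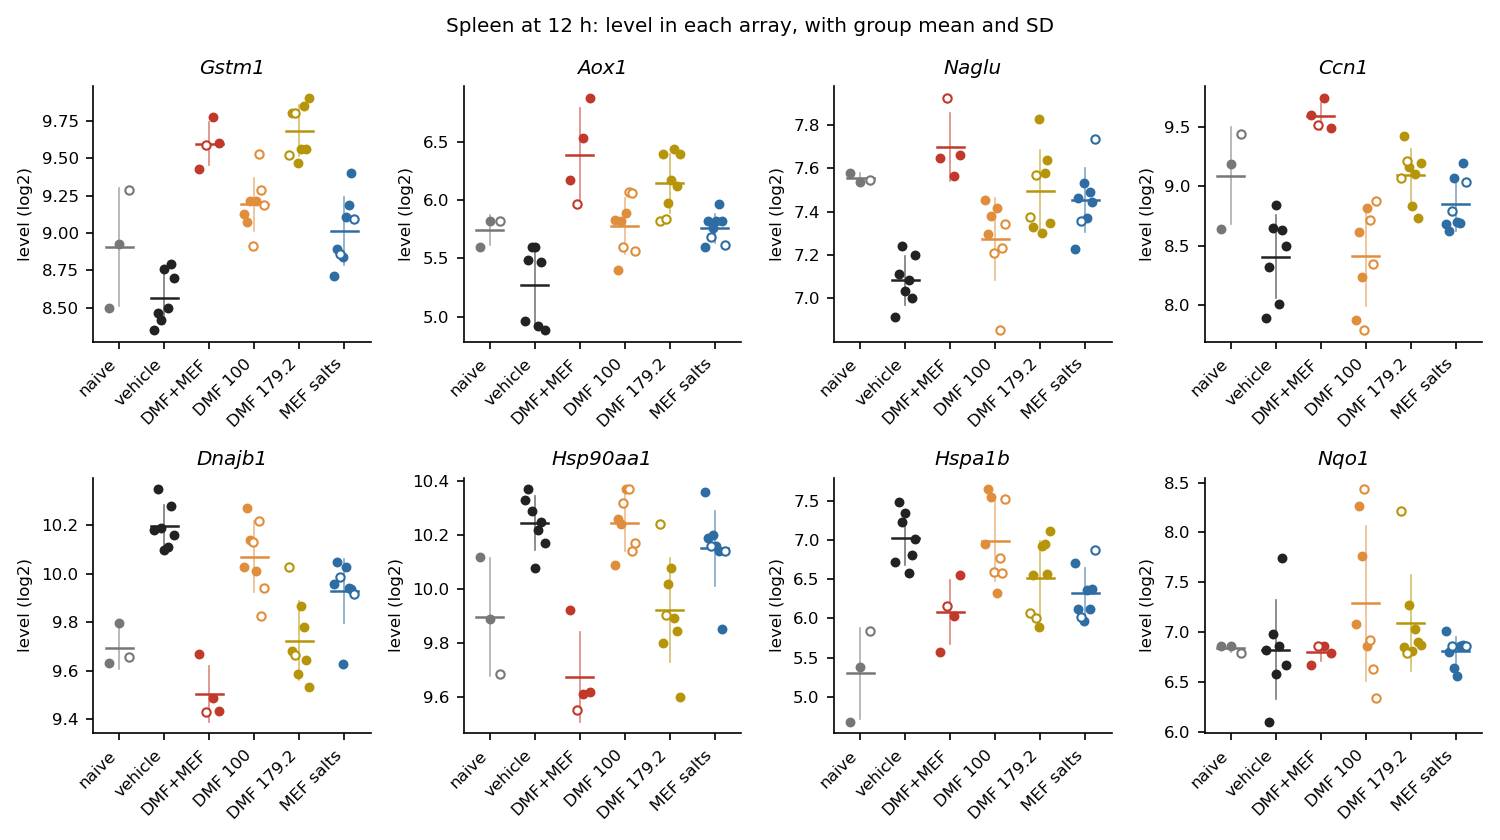
Log2 level (y axis) of 8 genes in every spleen array at 12 h, by group (x axis), with lines at the group mean and ± 1 SD, and with open points for arrays above 6 log2 in Prss2 or above 8 in Alb. Gstm1, Aox1, Naglu and Ccn1 are higher in all 4 combination arrays than in the 7 vehicle arrays, Dnajb1, Hsp90aa1 and Hspa1b are lower in all 4, and Nqo1 lies inside the vehicle range.

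Heat shock genes fell. Of 9 measured heat shock genes, chaperones and their partners, 6 fell and none rose, against 0.556 percent of all genes called lower, with a median change of −0.26. Dnajb1, an HSP40 partner of HSP70, was at 9.67, 9.43, 9.49 and 9.43 with the combination and at 10.10 to 10.35 with a median of 10.18 with vehicle. All 4 arrays lay below all 7, and the change was −0.69 ± 0.10 (9.50 ± 0.11, SD, n = 4, against 10.20 ± 0.09, n = 7; adjusted p = 2.37e-05 by limma, 1.61-fold lower). It was called in all 22 settings tried. Its second probe set changed by −0.39 ± 0.12.

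Hsp90aa1, the inducible HSP90, was at 9.92, 9.55, 9.61 and 9.62 against 10.08 to 10.37 with a median of 10.25, a change of −0.57 ± 0.11. Dnaja1, a further HSP40, was at 10.41, 10.26, 10.37 and 10.29 against 10.63 to 11.01 with a median of 10.79, a change of −0.46 ± 0.09. Hspa1b, the inducible HSP70, was at 5.57, 6.15, 6.03 and 6.56 against 6.57 to 7.48 with a median of 7.01, a change of −0.95 ± 0.26. In these 3 genes, too, no combination array reached the vehicle range, although array 36 came within 0.02 of it for Hspa1b. Hspa8, the constitutive HSP70 (12.59 to 12.71 against 12.79 to 12.99), fell by 0.23 without overlap, and Hsph1, an HSP110 (11.33 to 11.63 against 11.61 to 11.93), fell by 0.26 with array 33 inside the vehicle range. Hspe1, Bag3 and Hspb1 changed by −0.09 ± 0.06, 0.09 ± 0.16 and 0.40 ± 0.26 and did not pass. Outside the list, Hspa4l, a relative of Hsph1, was at 7.2 to 7.34 against 7.58 to 8.19 and fell by 0.61.

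Array 34, the one with pancreatic transcripts, bears on these counts. Without it 3 heat shock genes were called, and 3 were called without all Prss2 or Alb arrays: Dnajb1 (−0.67, adjusted p = 0.002), Hsp90aa1 (−0.53, 0.034) and Dnaja1 (−0.44, 0.026 by limma). Hspa1b then changed by −0.97 and Hspa8 by −0.21, not called. Hspa1b, Hspa8 and Hsph1 also lost their calls without other single arrays, Hspa1b without 33, 34 or 35 or vehicle array 2 (adjusted p = 0.12, 0.057, 0.079 and 0.062), Hspa8 without 33 or 34 (0.068 and 0.072), and Hsph1 without 34, 35 or 36 or vehicle array 3, 5 or 7 (0.18, 0.11, 0.065, 0.067, 0.053 and 0.068). With place as a covariate 5 of the 9 fell, and with place and without the Prss2 or Alb arrays only Dnajb1 was called. Hspa1b has a near-identical neighbour gene, and its probe set may carry signal of both.

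HSF1 binds inverted repeats of the letters GAA. The motif GAANNTTC or TTCNNGAA, each its own reverse complement and so read on both strands, was searched in the 250 bases before each transcription start in RefSeq (GRCm38.p6). It was present in 12.8 percent of all 32851 windows and in 14.5 percent of 27025 genes. Of the 9 heat shock genes 7 had a window, and 5 of these held the motif. Among the 5 were Hspe1 and Hspb1, whose changes of −0.09 and 0.40 were not called. Shown are 60 bases around the motif for the 3 genes that fell and held it. They are written 5′ to 3′ on the gene's strand, with the motif in capitals.
Hspa1b: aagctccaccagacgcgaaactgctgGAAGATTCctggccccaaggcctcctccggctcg
Dnaja1: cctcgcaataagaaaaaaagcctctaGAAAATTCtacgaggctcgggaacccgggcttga
Hsph1: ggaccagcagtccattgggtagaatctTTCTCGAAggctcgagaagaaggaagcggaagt
They lie at chr17:34959309-34959368 (minus strand), chr4:40722318-40722377 (plus strand) and chr5:149636337-149636396 (minus strand), upstream of the transcripts, and the motif starts 104, 124 and 33 bases before the start site. Dnaja1 has further start sites whose windows lacked the motif. Dnajb1 held no match in either of its windows. The NRF2 motif TGACNNNGC, read on both strands, was in 10.2 percent of all windows and 11.5 percent of all genes, and in the windows of 4 of the 22 NRF2 target genes with an entry, and Gstm1 and Aox1 held none. A match describes the letters in these windows, not binding.

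The leading genes by size of change, some of them described above, were 15 that rose and 12 that fell. In 25 of the 27 the groups did not overlap. Over all genes all 4 combination arrays lay above in 3.42 percent and below in 1.18 percent. The 27 were chosen from these same arrays for size and for their call in both fits, which favours genes without overlap. Their changes and the count without overlap are therefore given as a description. Ccn1, a secreted matrix protein and early target of growth signals, was at 9.60, 9.52, 9.74 and 9.48 against 7.90 to 8.84 with a median of 8.50, a change of 1.18 ± 0.22 and a 2.26-fold higher level. Its 4 combination arrays lay within 0.3 log2 of each other while the vehicle arrays spread over almost 1 log2. Its second probe set changed by 1.5 ± 0.27.

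Naglu and Gaa code for lysosomal hydrolases that degrade heparan sulfate and glycogen. Naglu was at 7.65, 7.93, 7.56 and 7.66 against 6.92 to 7.24 with a median of 7.08, a change of 0.61 ± 0.09, and Gaa at 7.22, 6.95, 7.30 and 7.26 against 6.44 to 6.79 with a median of 6.59, a change of 0.59 ± 0.14. Neither gene overlapped between the groups. Ninj1, a membrane protein of cell lysis, was at 8.46 to 8.63 against 7.65 to 8.56, where vehicle array 6 reached the combination values. Xcl1, a chemokine of NK and CD8 T cells, was at 7.46 to 7.89 against 6.92 to 7.45. Xcl1 lost its call without array 35 or 36 (adjusted p = 0.069 and 0.077). The zinc finger genes Zfp618, Zfp414 and Zfp688 rose by 0.68, 0.59 and 0.58, the ion pump regulator Fxyd1 by 0.57, the oxidoreductase gene Cryzl2 by 0.54, Smim8 by 0.51 and Fbxl4, a mitochondrial F-box protein, by 0.50.

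Among the leading genes that fell, Zfp800, a zinc finger gene, was at 5.85, 6.15, 6.08 and 5.95 against 6.70 to 7.63 with a median of 7.06, a change of −1.04 ± 0.23. Its 4 dimmer probe sets changed by −0.13 to 0.00, so the fall rests on 1 probe set. Irak3, an inhibitor of Toll-like receptor signalling, was at 7.64, 7.90, 7.61 and 7.53 against 8.26 to 8.72 with a median of 8.42, a change of −0.78 ± 0.17, while its dimmer probe set changed by 0.04 ± 0.10. Nolc1, a nucleolar protein, fell by 0.48, Trim25, a ubiquitin ligase of antiviral sensing, by 0.43, Smchd1, a chromatin protein, by 0.40, the kinase gene Dyrk2 by 0.32, Atxn2 by 0.28 and Wtap, of the RNA methylation complex, by 0.18. Smchd1 was not called without combination array 36 (−0.33, adjusted p = 0.084). When a gene's probe sets were averaged, the changes of Zfp618, Nolc1 and Atxn2 were 0.16, −0.22 and −0.08 and not called. With place as a covariate the changes of Irak3 and Zfp800 were −0.30 and −0.53 and not called, against −0.36 and called for Trim25. Of the 27 leading genes 17 were called with place as a covariate and 3, Aox1, Gstm1 and Dnajb1, with place and without the Prss2 or Alb arrays.

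**Figure D3:**
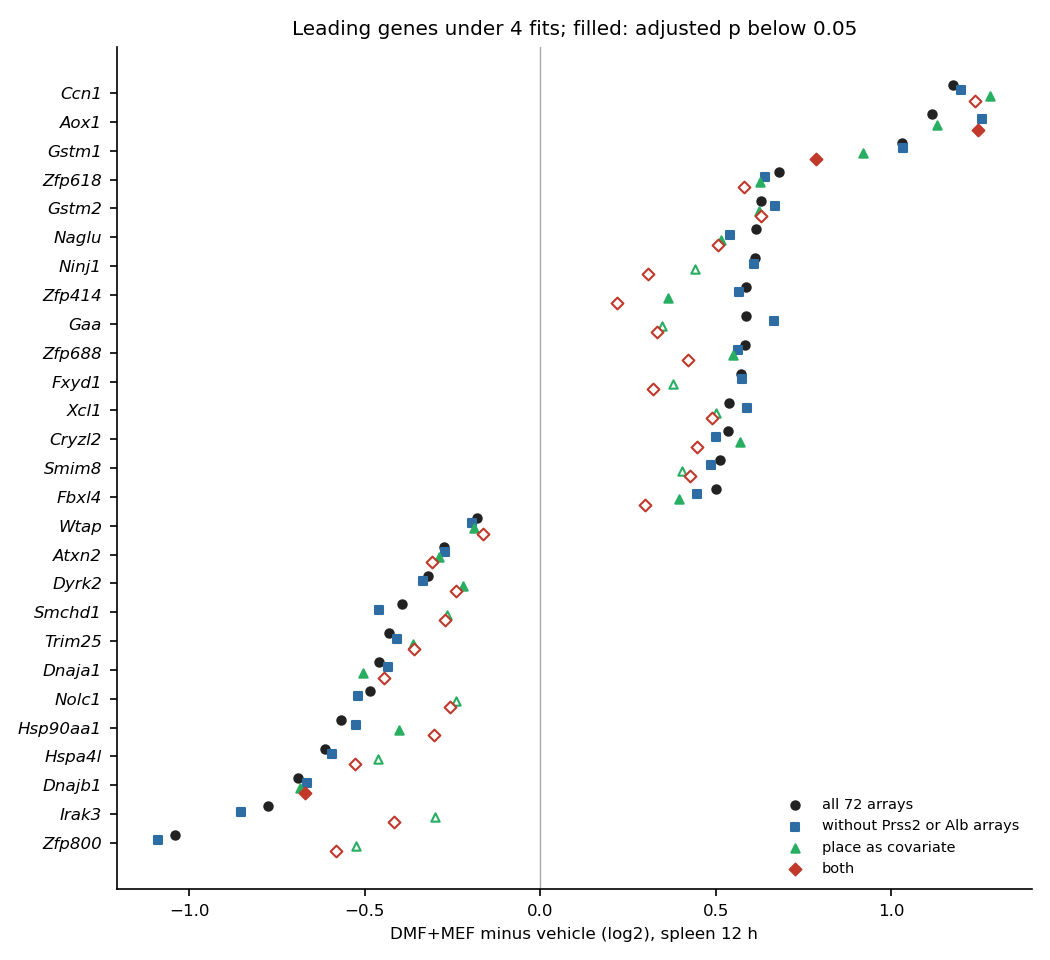
Log2 change, combination minus vehicle (x axis), of the 27 leading genes (y axis) in 4 fits: all 72 spleen arrays, without arrays above 6 log2 in Prss2 or above 8 in Alb, with place as a covariate, and with both. Filled symbols have an adjusted p below 0.05, and Aox1, Gstm1 and Dnajb1 are filled in all 4.

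RNA-binding genes moved in both directions. Of 22 measured splicing regulators 2 rose and 3 fell, against 2.8 and 0.556 percent of all genes, with a median of −0.06. Without array 35 or 36, or without vehicle array 1 or 2, 1 fell, and none of the 22 was called without the Prss2 or Alb arrays. Rbm3, an RNA-binding protein induced by cold, was at 7.87, 7.56, 7.75 and 7.74 against 8.30 to 8.61 with a median of 8.46 and fell by 0.72. Cirbp, of the same family and also induced by cold, was at 6.65, 7.25, 6.69 and 6.64 against 5.65 to 6.46 with a median of 6.15 and rose by 0.66 ± 0.14. So the 2 cold-induced genes changed in opposite directions, each without overlap between groups, and without the Prss2 or Alb arrays their changes were −0.66 and 0.51 with adjusted p of 0.066 and 0.087 by limma. A pair of nuclear noncoding RNAs also parted: Malat1 fell by 0.44 and Neat1 rose by 0.26. Malat1 moved with place, and with place as a covariate its change was −0.04. It lost its call without array 35 or 36 or vehicle array 1, 2 or 3 (adjusted p = 0.11, 0.2, 0.08, 0.07 and 0.055), and Neat1 without array 34 (0.073). Luc7l3, a splicing factor, fell by 0.28 and was not called without array 33, 35 or 36 or vehicle array 1 or 2 (adjusted p = 0.055, 0.1, 0.075, 0.05 and 0.061). Tra2b, a splicing activator, was at 6.82, 6.78, 6.41 and 6.06 against 7.17 to 8.27, a difference of −1.19 ± 0.39 that did not pass (adjusted p = 0.0704) and that was −0.18 with place as a covariate.

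Genes of cell division and of red cell formation had negative medians, with 1 call between them. Of 30 measured proliferation genes all 30 had a lower mean with the combination, against 35.1 percent of all genes, with a median of −0.47, and 1 of them, the mitotic kinase gene Plk1, was called. Plk1 was at 6.57, 5.93, 5.50 and 5.30 against 6.22 to 7.01 with a median of 6.63, a change of −0.82 ± 0.24. Array 33 lay inside the vehicle range, and Plk1 was not called without array 34, 35 or 36 or without vehicle array 1, 2, 3, 5 or 6 (adjusted p = 0.076, 0.17, 0.22, 0.082, 0.053, 0.057, 0.066 and 0.068). Mki67, a nuclear protein of dividing cells, was at 9.38 to 10.22 against 9.86 to 11.59 (−0.91 ± 0.35, adjusted p = 0.137). At an unadjusted p below 0.05, 13 of the 30 were lower, against 3.8 percent of all genes.

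None of 22 erythroid markers was called by limma, 12 were lower at an unadjusted p below 0.05, against 3.8 percent of all genes, and their median was −0.96. Their summed level lay inside the vehicle range (14.32 to 14.64 against 13.7 to 15.6). Klf1, the red cell transcription factor, was at 4.71, 4.65, 5.16 and 5.77 against 5.37 to 8.89 with a median of 6.64, and array 36 overlapped with the vehicle range. Gata1, which acts with it, was at 4.97 to 5.33 against 5.76 to 7.75 without overlap (−1.42 ± 0.47, adjusted p = 0.0724). The vehicle arrays were far apart in these genes, with an SD of 1.16 for Klf1 against 0.52 with the combination. Hba-a1 and Alas2, of hemoglobin and heme synthesis, differed by 0.14 ± 0.10 and 0.30 ± 0.44. In bulk tissue fewer cells of a type and less RNA per cell cannot be told apart. With place as a covariate 2 erythroid markers were called lower and none of the proliferation genes.

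A few markers of white blood cells and vessels rose, by small amounts, where 2.8 percent of all genes were called higher. Of 20 endothelial and stromal markers 4 rose: Col1a1, a collagen (0.40 ± 0.11), Pdgfrb, of pericytes (0.38 ± 0.10), Stab2, the scavenger receptor of sinus endothelium (0.37 ± 0.08; 10.54 to 10.77 against 10.10 to 10.42), and Pecam1 (0.32 ± 0.09). None of the 4 was called without the Prss2 or Alb arrays, and 1, Stab2, was called without combination array 34 or 35. Pdgfrb was also not called without array 36 (adjusted p = 0.1), Col1a1 without vehicle array 2 (0.054) and Pecam1 without vehicle array 1 or 4 (0.057 and 0.058). Of 11 dendritic cell markers Flt3 (0.31 ± 0.08) and Itgax (0.33 ± 0.09) rose, of 12 NK cell and cytotoxic markers Nkg7 (10.01 to 10.12 against 9.65 to 9.89; 0.30 ± 0.07), and of 16 red pulp macrophage markers Cd68, a lysosomal membrane protein (10.15 to 10.49 against 9.36 to 10.44; 0.57 ± 0.15). Nkg7 was called in 21 of 22 settings. Flt3 was not called without array 33 or 36 or vehicle array 1 (adjusted p = 0.096, 0.061 and 0.058), Itgax without 33, 34 or 35 or vehicle array 1 (0.07, 0.089, 0.092 and 0.091), and Cd68 without array 35 or vehicle array 2 (0.12 and 0.057). Summed levels did not overlap for the NK list (11.89 to 11.97 against 11.63 to 11.77) and the monocyte list (12.48 to 12.55 against 12.35 to 12.44), and they overlapped for red pulp macrophages (14.11 to 14.22 against 13.75 to 14.48). None of 17 B cell and none of 17 T cell markers was called by limma, with medians of 0.07 and 0.08. At an unadjusted p below 0.05, 3 B cell markers were higher, and 3 T cell markers were higher and 1 lower, against 12.7 and 3.8 percent of all genes.

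Zinc is part of the MEF mixture. None of 4 measured zinc response genes was called by limma, and none passed an unadjusted p of 0.05. Mt1, a metallothionein, was at 8.64 to 8.99 against 8.67 to 9.18 (−0.03 ± 0.18), and Slc30a1, the zinc exporter, at 9.71 to 9.79 against 9.61 to 10.00 (−0.05 ± 0.08). Hcar2, a receptor that binds the monomethyl ester of fumarate, differed by 0.19 ± 0.23.

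**Figure D4:**
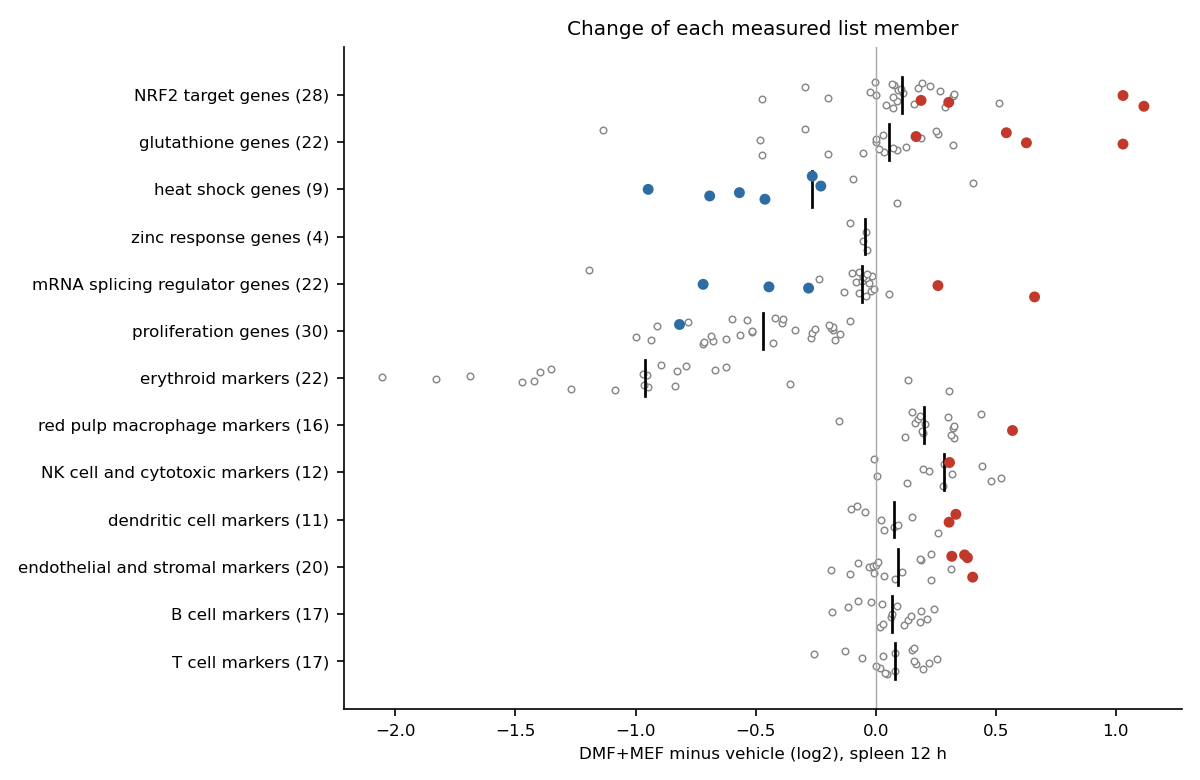
Log2 change, combination minus vehicle (x axis), of each measured member of 13 gene lists (rows, with the number measured), with filled points for genes at an adjusted p below 0.05 and a line at the list median. The heat shock list holds 6 filled points below 0, the NRF2 list 4 above 0, and the erythroid markers have the lowest median, −0.96, with no filled point.

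The combination was then set against its parts and against the higher dose of DMF. These comparisons share the 4 combination arrays with the one above. Against DMF 100 alone, 166 genes differed (0.971 percent), 149 higher (0.871 percent) and 17 lower (0.0994 percent). Without the Prss2 or Alb arrays, which leave 4 of the 8 DMF 100 arrays, 2 were called. Ccn1 was higher than with DMF 100 by 1.18 ± 0.21 (adjusted p = 0.00179), Naglu by 0.43 ± 0.09, Cirbp by 0.67 ± 0.14 and Zc3h6, a zinc finger gene, by 0.78 ± 0.15. Of the heat shock genes 5 were lower than with DMF 100: Dnajb1 by −0.57 ± 0.10, Hsp90aa1 by −0.57 ± 0.11, Hsph1 by −0.49 ± 0.07, Dnaja1 by −0.33 ± 0.09 and Hspa8 by −0.28 ± 0.06. Rbm3 was lower by −0.64 ± 0.15. Gstm1 differed by 0.40 ± 0.11 (95% interval 0.18 to 0.63, adjusted p = 0.0557) and Aox1 by 0.61 ± 0.17 (0.27 to 0.95, adjusted p = 0.0568), which missed the threshold.

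DMF 100 also has animals in places 9 to 12. In a fit of only those 4 DMF 100 arrays and the 4 combination arrays, 344 genes differed (2.01 percent), 162 higher (0.948 percent) and 182 lower (1.06 percent). There Dnajb1 was lower by −0.64 (adjusted p = 0.028), Hsp90aa1 by −0.55 (0.044) and Hspa8 by −0.33 (0.031), and Ccn1 was higher by 1.45 (0.031). Hsph1 (−0.48, 0.081), Dnaja1 (−0.33, 0.095), Naglu (0.36, 0.104), Cirbp (0.63, 0.153) and Rbm3 (−0.72, 0.0502) did not pass there, and Gclm, the other subunit of the glutathione ligase, was lower by −1.17 (0.030). With place as a block in the same 8 arrays no gene was called by limma (2826 at an unadjusted p below 0.05), and the adjusted p was 0.129 for Dnajb1, 0.113 for Ccn1, 0.076 for Hspa8 and 0.191 for Hsp90aa1. Without the block Klf1 was lower by −3.22 (adjusted p = 0.037 by limma), and with the block its adjusted p was 0.113. Other red cell genes were lower there too, among them Epb42 (−2.93) and Rhd (−2.85), each called without the block (0.030). Epor (−1.13, 0.169) was not called. Klf1 was at 7.06 to 9.07 in those DMF 100 arrays. Of these arrays 2 also held 11.47 and 6.35 log2 of Apoa1, a member of the liver list, with Alb at 3.47 in both, and 1 was above 6 log2 in Prss2. Over all 8 DMF 100 arrays the summed level of stomach and gut markers reached 12.23, against at most 7.78 with vehicle. The source of the Apoa1 signal was not tested. Tra2b differed by −0.03 and Irak3 by −0.03 in the same places.

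Against MEF salts alone 15 genes differed (0.0877 percent), 14 higher (0.0819 percent) and 1 lower (0.00585 percent), and 2 without the Prss2 or Alb arrays. None was called by limma with place as a covariate or in a fit of the 12 h arrays alone, so the calls named next end there. Gstm1 was higher by 0.58 ± 0.11 (adjusted p = 0.0114) and Hsp90aa1 lower by −0.47 ± 0.11 (0.0468). Lair1, an inhibitory receptor of white blood cells, was higher by 0.54, Prr5l by 0.68 and Gca, a calcium-binding protein of neutrophils, by 0.72. At the matched total dosed mass, DMF 179.2, 3 genes differed (0.0175 percent), all higher, and Ccdc96 and Plekhd1 among them by only 0.06 and 0.20 at levels near the floor. Gstm1 differed there by −0.09 (95% interval −0.31 to 0.14), Aox1 by 0.25 (−0.10 to 0.59), Ccn1 by 0.49 (0.07 to 0.92) and Dnajb1 by −0.22 (−0.42 to −0.02), none past the threshold. Leaving out combination array 33, 34, 35 or 36 gave 105, 51, 38 or 40 calls against MEF salts and 35, 46, 28 or 32 against DMF 179.2, so these counts rose with fewer arrays. Replacing 79.2 mg/kg of the dimethyl ester with the salts of the ethyl monoester thus gave no difference in these genes that passed the test, and the intervals leave room for the sizes given.

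Set side by side against the same vehicle arrays, Gstm1 changed by 1.03 with the combination, 0.62 with DMF 100, 0.44 with MEF salts and 1.12 with DMF 179.2, and was called in each. Aox1 changed by 1.12, 0.51, 0.49 and 0.87, called with the combination and with DMF 179.2. Dnajb1 changed by −0.69, −0.12, −0.26 and −0.47, called in the same 2 groups. Ccn1 changed by 1.18, 0.00, 0.44 and 0.68 and was called with the combination alone, although its difference from MEF salts and from DMF 179.2 did not pass. The call counts of the single groups were 3 (0.0175 percent) for DMF 100, 158 (0.924 percent) for MEF salts and 81 (0.474 percent) for DMF 179.2. Split by direction these were 1 higher (0.00585 percent) and 2 lower (0.0117 percent) for DMF 100, 71 (0.415 percent) and 87 (0.509 percent) for MEF salts, and 63 (0.368 percent) and 18 (0.105 percent) for DMF 179.2. A test of the combination against the sum of the DMF 100 and MEF changes called 0 genes by limma (703 at an unadjusted p below 0.05; 4, 1, 1 or 3 calls without array 33, 34, 35 or 36). In that test Gstm1 deviated from the sum by −0.04 (95% interval −0.33 to 0.26), Hsp90aa1 by −0.48 (−0.75 to −0.20) and Ccn1 by 0.74 (0.18 to 1.29). The intervals are not adjusted for the number of genes tested, and the adjusted p by limma was 0.878 for Hsp90aa1 and 0.9985 for Ccn1. The groups also differ in place. DMF 100 fills places 1 to 4 and 9 to 12, MEF salts 1 to 8 and DMF 179.2 5 to 12. MEF salts, like vehicle in places 1 to 7, share no place with the combination in 9 to 12. Agent, dose and place are therefore mixed in the changes set side by side, in the call counts and in the test of the sum. The part of place in them was not tested.

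**Figure D5:**
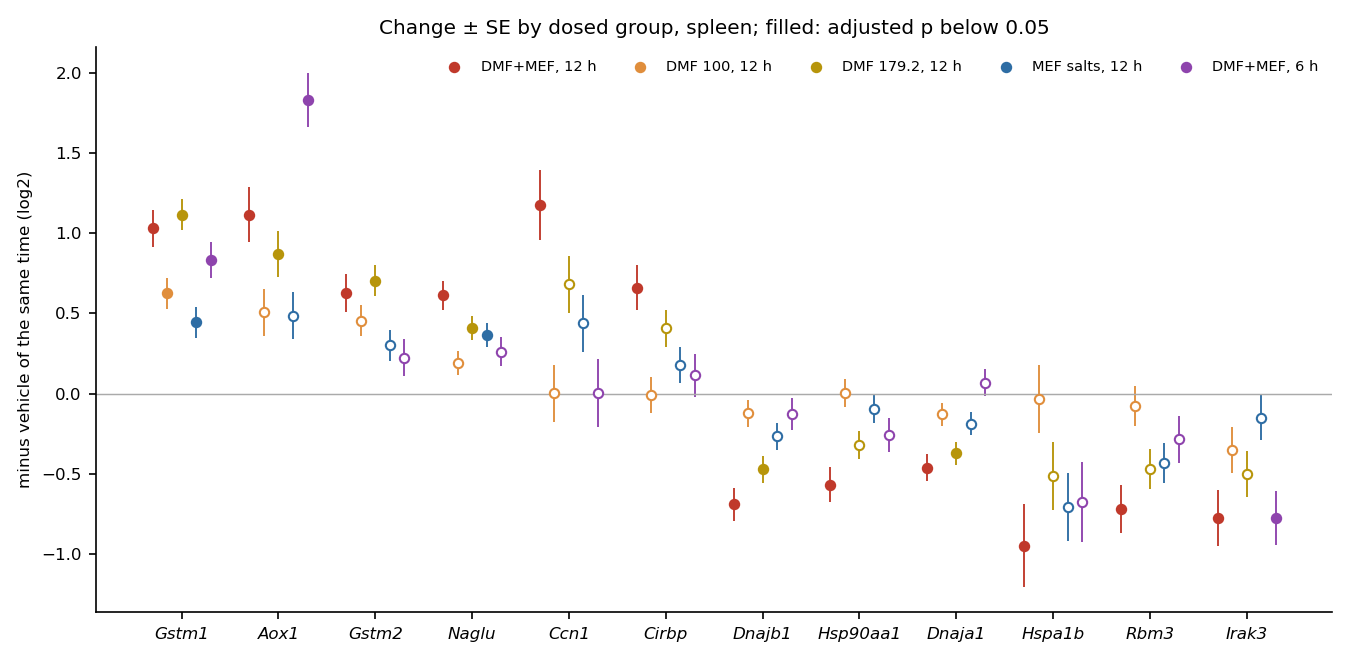
Log2 change ± SE against the vehicle of the same time (y axis) for 12 genes (x axis) in the combination, DMF 100, DMF 179.2 and MEF salts groups at 12 h and in the combination at 6 h, with filled points at an adjusted p below 0.05. Gstm1 is filled in all 5, and Ccn1, Cirbp, Hsp90aa1, Hspa1b and Rbm3 only for the combination at 12 h.

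At 6 h the combination (4 arrays) differed from its own vehicle (8 arrays) in 681 genes (3.98 percent), 457 higher (2.67 percent) and 224 lower (1.31 percent), in 170 without the Prss2 or Alb arrays, in 80 with place as a covariate, in 78 with both and in 396 without 6 h array 86. Of the NRF2 list 12 of 28 rose, with a median of 0.25. Without the Prss2 or Alb arrays, with place and with both, 2, 6 and 4 of the 28 were called higher and none lower, with medians of 0.24, 0.28 and 0.20. Of all 17097 genes, 170, 80 and 78 were called in either direction in these fits. In the fit of all arrays Aox1 rose by 1.83 ± 0.17, Nqo1 by 1.26 ± 0.30, Gstm1 by 0.83 ± 0.11, Srxn1 by 0.78 ± 0.15 and Txnrd1 by 0.46 ± 0.07. Liver genes had higher means in that fit too. Apoa2 rose by 2.03 ± 0.61 and Kng1 by 1.68 ± 0.51 (adjusted p = 0.0434 for each by limma). Alb differed by 2.24 ± 0.71 and was not called (0.0568). The part of liver RNA in the 6 h changes was not tested. Of the 9 heat shock genes none was called at 6 h by limma, with a median of −0.05, and Dnajb1 changed by −0.12 ± 0.10. Ccn1 changed by 0.00 ± 0.21 at 6 h, and Irak3 by −0.78 ± 0.17 at both times. The difference between the times called 0 genes by limma (1473 at an unadjusted p below 0.05), so no gene is shown to change between 6 and 12 h. It called 6, 1, 2 or 3 without 12 h combination array 33, 34, 35 or 36, and 1 each without vehicle array 2 or 4 and without 6 h array 84 or 85. For Nqo1 that difference was −1.28 (95% interval −2.13 to −0.44, adjusted p = 0.379), for Dnajb1 −0.57 (−0.85 to −0.28, 0.217) and for Ccn1 1.17 (0.56 to 1.78, 0.236). Erythroid markers had medians of 0.93 at 6 h and −0.96 at 12 h, and proliferation genes of 0.48 and −0.47.

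Vehicle itself differed from naive mice in 3130 genes at 12 h (18.3 percent), 1376 higher (8.05 percent) and 1754 lower (10.3 percent), with 3 naive arrays, 1 of which was above 8 log2 in Alb. Without naive array 41 the count was 1356. This contrast shares the vehicle arrays with the main one, so the values are given side by side only. Of the 9 heat shock genes 6 were higher in vehicle than in naive mice, with a median of 0.41. Dnajb1 was at 9.70 ± 0.09 in naive mice, 10.20 ± 0.09 with vehicle and 9.50 ± 0.11 with the combination (SD, n = 3, 7 and 4). Hspa1b was at 5.30 ± 0.58, 7.02 ± 0.34 and 6.08 ± 0.41, and Rbm3 at 7.42 ± 0.33, 8.45 ± 0.10 and 7.73 ± 0.13. Naglu was at 7.55 ± 0.02, 7.08 ± 0.11 and 7.70 ± 0.16, and Ccn1 at 9.09 ± 0.41, 8.41 ± 0.35 and 9.59 ± 0.12. Gstm1 was at 8.90 ± 0.39, 8.57 ± 0.18 and 9.60 ± 0.14. In each of these 6 genes the naive mean lay on the combination's side of the vehicle mean, and for Gstm1 it was nearer to vehicle than to the combination. The other leading genes named above lay the same way. Vehicle minus naive was 0.91 for Zfp800, 0.72 for Irak3 and 0.60 for Atxn2, which fell with the combination. It was −0.59 for Cryzl2, −0.54 for Zfp688 and −0.47 for Aox1, which rose. So vehicle stood apart from both naive mice and the combination in these genes. The part of handling, dosing or place in these values was not tested.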

How the data were processed

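The authors deposited log2 values for each probe set and array. RMA, GCRMA, R 2.11.1 and limma 3.4.5 are named in the submitters' processing notes, with no role or order, and the genome build is not given in the sources used here. Of 45141 probe sets, 104 were controls, 28898 had 1 gene in the platform annotation, 551 several and 15588 none. For each of 17097 genes, the brightest probe set on average over 72 spleen arrays was used. In the 38 arrays at 12 h, 25.5 percent of values lay at the floor of 2.19 log2.

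limma 3.58.1 (R 4.3.3, data.table, version 1.17.8) fitted 1 mean per group over all 72 arrays, with 2-sided moderated tests, Benjamini-Hochberg adjustment over all genes and a call below 0.05. Intervals are the fit's 95% intervals. Place was a covariate at each time. The floor and the array medians differ between times, so times were compared only as differences from their vehicle. The steps were tested on simulated data.

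Named genes are the 15 highest and lowest called also without Prss2 or Alb arrays and of more than median mean, up to 6 called members of each of 40 lists, 5 per direction of other contrasts and a fixed set including Nqo1, and predicted and sex-linked genes are left out. Members and lists were chosen with earlier results of these data known. Titles give separate animal numbers. Figures were drawn with matplotlib 3.10.9, from tables made with pandas 2.3.3 and numpy 2.4.6 in Python 3.11.15.

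Alternatives were a fit of the 12 h arrays or of the 2 groups alone, array weights, dim genes (under the median) left out, quantile normalization, the mean of probe sets, trend and robust variance, and place. Further alternatives left out the Prss2 or Alb arrays, or each 12 h combination or vehicle array in turn. Leaving out naive and 6 h combination arrays, and place as a block against DMF 100, were added after seeing the data. Arrays of the other groups were not left out singly.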

Additional observations from a re-analysis of the deposited data

Results flagged for a closer look

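In 16 of 138 groups of values tested a single array stood apart from the rest of its group, by a gap to its nearest neighbour that was large for the range of the group. Chance alone gives about 1 in 20 groups such a gap. The case of Prss2, at 10.5 log2 in combination array 34 against 2.26 in the other 3, is the pancreatic signal given above. Alb, of liver, was 3.64 in combination array 33 (3.47 in the others) and 4.89 in vehicle array 1 (3.47 in the others), both below the limit of 8. Where the other arrays of a group share a value, as for Prss2 and Alb here, any single departure is flagged. The rate of 1 in 20 does not apply to such tied values.

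Among genes that rose, combination array 34 was highest for Cirbp at 7.25 (next 6.69) and array 35 for Cd68 at 10.49 (next 10.17). Combination array 33 was lowest for Mgst1 at 8.74 (next 9.18) and for Zfp618 at 6.85 (next 7.17), and array 36 was lowest for Itgax at 9.38 (next 9.56). For Cbr3, which did not pass, array 36 was highest at 6.39 (next 5.80). Trim25, which fell, was lowest in array 34 at 9.99 (next 10.08).

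Vehicle array 6 was the highest of its group for 3 genes, Cd68 at 10.44 (next 9.80), Ninj1 at 8.56 (next 8.02) and the iron exporter Slc40a1 at 11.63 (next 11.34). It was also the vehicle array with the highest Klf1, 8.89. Vehicle array 2 was highest for Wtap at 11.75 (next 11.61), array 1 lowest for Neat1 at 11.11 (next 11.33) and array 3 lowest for Osgin1 at 5.07 (next 5.61).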

How the results depend on the processing

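The 574 calls of the main comparison became 188 in a fit of the 2 groups, 1589 with array weights, 312 after quantile normalization, 226 with place as a covariate, 115 without the Prss2 or Alb arrays and 13 with both, and 247 to 605 with 1 array left out. Of the 574 genes, 111 were among the 115, 123 among the 226 and 12 among the 13. Against DMF 100 the 166 calls became 851 with array weights, 79 after quantile normalization, 307 with place, 2 without the Prss2 or Alb arrays, 4 with both, and 118 to 139 with 1 array left out. Against MEF salts the 15 became 0 with the 12 h arrays only, 564 with array weights, 0 with place, 2 without the Prss2 or Alb arrays, 2 with both, and 38 to 105 with 1 array left out. Against DMF 179.2 the 3 became 0 with the 12 h arrays only, 32 with array weights, 0 without dim genes, 5 with the mean of probe sets, and 28 to 46 with 1 array left out. At 6 h the 681 became 80 with place, 170 without the Prss2 or Alb arrays, 78 with both, and 396 to 721 with 1 array left out. The difference between times went from 0 to 35 with array weights, 3 with the mean of probe sets, 1 with place and 3 without the Prss2 or Alb arrays, and to 0 to 6 with 1 array left out, and the deviation from the sum of single effects to 0 to 4 with 1 array left out. Vehicle against naive, 3130, became 1528 with array weights and 1356 to 3233 with 1 array left out. Arrays of DMF 100, MEF salts, DMF 179.2 and the 6 h vehicle were not left out singly, so the ranges do not cover them. The cause of these shifts was not tested. No paired analysis was possible because the labelled animal numbers of the groups differ, and with place as a block, added after seeing the data, the 344 calls against DMF 100 in places 9 to 12 became 0.

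No change of a named gene reversed its direction past the threshold in any setting run. The group of 4 arrays limits precision, and 25.5 percent of values at 12 h lay at the floor, where a fall cannot be seen.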

Other observations

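In all settings run, 5 genes were called: Gstm1, Dnajb1, Aldoa, Chmp1a and Slc35d2. The last 3 lie outside the naming rule and are named here with their values known. Aldoa, an aldolase of glycolysis, rose by 0.26 ± 0.03, Chmp1a, of endosomal sorting, by 0.22 ± 0.03 and Slc35d2, a nucleotide sugar transporter, by 0.39 ± 0.07.

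Other lists with a called member were the complement and coagulation genes, of which Serping1, the C1 inhibitor, rose by 0.25 (10.12 to 10.31 against 9.82 to 10.10), with 7 of 12 higher at an unadjusted p below 0.05 against 12.7 percent of all genes, and the heme and iron genes, of which Ftl1 and the constitutive heme oxygenase Hmox2 (9.72 to 9.93 against 9.46 to 9.71; 0.23 ± 0.05) rose. Ier3, an early response gene, rose by 0.49 ± 0.13, the proteasome subunit gene Psmb6 by 0.20 ± 0.05 and the complex I gene Ndufa10 by 0.22 ± 0.06, each the only call of its list. Several of these calls rest on single arrays: without combination array 35 the adjusted p was 0.094 for Serping1, 0.078 for Ier3, 0.14 for Psmb6 and 0.094 for Ndufa10, and without array 36 it was 0.067 for Hmox2. None of the ATF4, endoplasmic reticulum chaperone, glucocorticoid, clock, interferon, NF-kB, p53, cholesterol or PPAR-alpha lists held a called gene by limma, and none of the plasma cell, germinal centre, neutrophil, monocyte, megakaryocyte, mast cell, pancreatic, liver, adipocyte, mesothelial, muscle or gut lists did.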
